A study of Macaca mulatta with 8 samples.

Results

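Open chromatin regions of developing rhesus macaque cortex cells were divided by whether the submitters had merged into them a peak carried over from another set. In the deposited table each region lists the names of its peaks. Names ending in nativeFiltered belong to the macaque stages, and names ending in liftedUnmerged belong to other sets with the codes H14, H16, H22 and H23, which the labels do not define. The regions were chosen by these peak calls: of 112696 regions, 72358 held at least 1 stage peak and are called native here. Of the native regions, 45827 also held at least 1 lifted peak and 26531 held none. The other 40338 regions held lifted peaks alone. At the threshold between the groups, 6885 regions held exactly 1 lifted peak and lay just inside, against the 26531 with 0.

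Accessibility was measured by Omni-ATAC, an assay in which the Tn5 transposase cuts and tags open DNA. The cells were primary Macaca mulatta cortex at post-conceptional days 50, 60, 80 and 85, here E50, E60, E80 and E85. Genotype and strain are not given in the labels, and no stage carried an added treatment. All 4 stages shared the same handling: frozen cortical pieces were thawed, dissociated with papain and grown on laminin in a medium with FGF2, EGF and BDNF that favours progenitors, with a survival cocktail (CEPT) at plating. Each stage had 1 culture and 2 technical libraries from it, 8 libraries in all, so no comparison of stages below has a replicate check. A cultured progenitor-enriched population limits the model, since it need not hold the cell types of the tissue in their natural proportions. The number of stage peaks was 19833 for E50, 61956 for E60, 60278 for E80 and 30701 for E85, and the lifted sets 71615 (H14), 25822 (H16), 42871 (H22) and 75146 (H23).

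As background, promoters of widely used genes stay open in most cells and tend to be shared between tissues and species, whereas distal elements such as enhancers are open in few cell types and change faster in evolution. Lifting a peak over means finding the matching stretch of a second genome assembly through an alignment, so a peak can be placed only where such a stretch exists. AP-1, a dimer of FOS and JUN family proteins, binds distal elements in many cell types and is induced by growth factors and stress.

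The sequences of 6 narrow regions illustrate the comparison, and each was called at 3 or 4 stages and lies in or near a gene of the cell type and pathway lists used here. They were read from the forward strand of rheMac10 (Mmul_10), and capitals mark any of the 14 short motifs searched on both strands. The first 3 held lifted peaks of 3 or 4 codes.
ALDH1L1 chr2:150381357-150381653: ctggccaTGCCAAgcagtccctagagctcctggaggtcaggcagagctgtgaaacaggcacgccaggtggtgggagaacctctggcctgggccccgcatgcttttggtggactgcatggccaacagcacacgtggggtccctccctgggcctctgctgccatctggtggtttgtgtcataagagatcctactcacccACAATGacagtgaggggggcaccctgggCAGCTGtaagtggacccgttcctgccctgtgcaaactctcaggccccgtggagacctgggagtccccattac
NFIA chr1:163167074-163167359: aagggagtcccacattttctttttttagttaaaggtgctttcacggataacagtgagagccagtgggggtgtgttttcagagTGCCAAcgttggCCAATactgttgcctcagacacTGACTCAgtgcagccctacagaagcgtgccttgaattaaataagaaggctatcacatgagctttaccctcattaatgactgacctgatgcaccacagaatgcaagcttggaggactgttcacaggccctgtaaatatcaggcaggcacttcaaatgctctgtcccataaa
NTM chr14:123989819-123990116: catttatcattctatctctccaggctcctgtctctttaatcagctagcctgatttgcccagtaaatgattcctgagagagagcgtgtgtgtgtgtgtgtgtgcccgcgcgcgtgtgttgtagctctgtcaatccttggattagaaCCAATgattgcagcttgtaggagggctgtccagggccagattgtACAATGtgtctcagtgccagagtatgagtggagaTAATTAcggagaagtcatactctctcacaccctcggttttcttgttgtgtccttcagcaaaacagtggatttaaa
ALDH1L1 encodes a folate enzyme used as an astrocyte marker, and its region is intronic, 44612 bp from the nearest start. NFIA encodes a nuclear factor I protein of gliogenesis, and its intronic region, 28931 bp from a start, holds a CCAAT box, the AP-1 motif (TGACTCA) and the nuclear factor I core (TTGGCA). NTM encodes neurotrimin, a neuronal adhesion protein, and its region lies 97 bp from a start and holds a homeobox motif (TAATTA), a SOX motif (ACAATG) and a CCAAT box. The next 3 held no lifted peak.
NOTCH2 chr1:104276750-104276973: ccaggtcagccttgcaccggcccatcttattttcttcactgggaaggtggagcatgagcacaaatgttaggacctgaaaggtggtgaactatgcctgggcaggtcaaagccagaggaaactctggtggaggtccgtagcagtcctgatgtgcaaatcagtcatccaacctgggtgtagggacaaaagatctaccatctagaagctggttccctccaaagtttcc
GFAP chr16:56185891-56186168: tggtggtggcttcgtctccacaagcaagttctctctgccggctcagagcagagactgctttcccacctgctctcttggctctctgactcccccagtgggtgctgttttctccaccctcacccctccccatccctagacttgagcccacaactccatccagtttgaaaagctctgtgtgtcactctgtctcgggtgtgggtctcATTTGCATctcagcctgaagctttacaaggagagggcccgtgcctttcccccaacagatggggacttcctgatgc
EGR1 chr6:135869804-135870096: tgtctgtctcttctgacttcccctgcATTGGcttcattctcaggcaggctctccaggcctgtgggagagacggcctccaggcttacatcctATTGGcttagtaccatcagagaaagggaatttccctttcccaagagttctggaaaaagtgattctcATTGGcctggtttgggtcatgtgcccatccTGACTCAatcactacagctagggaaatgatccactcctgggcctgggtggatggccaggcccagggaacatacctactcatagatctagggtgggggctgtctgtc
NOTCH2 encodes a receptor that keeps radial glia in a progenitor state, and its intronic region, called at all 4 stages and 54534 bp from a start, holds none of the 14 motifs. GFAP encodes the intermediate filament of astrocytes, and the intergenic region 4907 bp from a start holds a POU octamer (ATGCAAAT). EGR1 encodes an immediate-early transcription factor, and the intergenic region 3986 bp from a start holds the AP-1 motif and 3 CCAAT boxes. The centre sequence of each of the 6 regions occurs once in the assembly. A motif match describes letters and not a bound site.

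Regions with a lifted peak were mostly those open at several stages. Of all native regions, 63.3% held a lifted peak (exact 95% interval 63.0% to 63.7%), which is the background for lifted shares by stage and width. Promoters, distal regions and gene loci have backgrounds of their own, given below. The exact intervals cover counting error alone, and regions are not independent replicates. The share was 40.6% of the 22629 regions called at 1 stage, 60.4% of 22990 at 2 stages, 77.0% of 9714 at 3 stages and 89.8% of 17025 at all 4 stages. Put the other way, 50.7% of the regions without a lifted peak were called at 1 stage and 6.57% at 4 stages, against 20.0% and 33.3% of those with one. The intervals of the 4 classes did not overlap, and the difference between 4 stages and 1 stage was 49.2 percentage points.

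Width moved with this difference. The median region was 663 bp wide with a lifted peak and 307 bp without. A wider region has more room to hold any peak, and the merged bounds may themselves rest on the lifted peak, so width and the rule are not independent. The share rose from 29.7% of regions up to 300 bp to 57.4% above 300 and up to 600 bp, 85.1% above 600 and up to 1000 bp, and 96.5% above 1000 and up to 2000 bp. With both classes weighted to the same 5 width bins, the difference between 4 stages and 1 stage was 18.5 points. Among regions up to 300 bp, 20.0% held a lifted peak at 1 stage, 39.9% at 2, 61.5% at 3 and 56.3% of 238 at 4 stages. Above 300 and up to 600 bp the shares at 1 and 4 stages were 50.8% and 73.5%. Above 1000 and up to 2000 bp they were 95.8% and 96.9%.

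Regions called at a single stage were not alike. Those called at E60 alone held a lifted peak in 50.7% of 11835 cases (49.7% to 51.6%), and those called at E80 alone in 27.9% of 9599 (27.0% to 28.8%), although the 2 sets are close in size. The E85-alone share was 39.3% of 967 and the E50-alone share 55.3% of 228. The 21251 regions called at E60 and E80 together, the most frequent pattern, lay at 61.0%. E60-alone regions were wider, with a median of 345 bp against 273 bp, and 10.6% of them were promoters against 5.38%. Weighted to common width bins, E60 alone exceeded E80 alone by 12.9 points, against 22.8 points unweighted. Up to 300 bp the shares were 27.4% and 14.6%, and above 300 and up to 600 bp they were 57.0% and 40.8%. Above 600 and up to 1000 bp, where 84.6% and 81.7% held one, the intervals of 82.8% to 86.4% and 78.1% to 84.9% overlapped. This contrast was singled out after the values were seen, and with 1 culture at each stage, age, culture and threshold cannot be told apart.

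**Figure D1:**
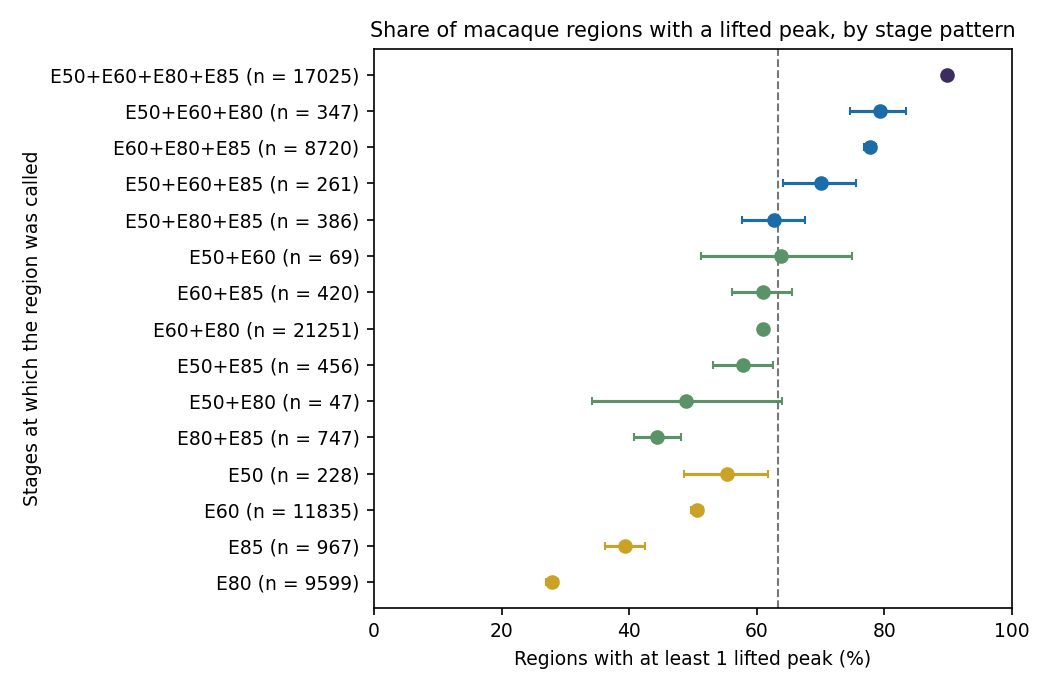
Share of native regions with at least 1 lifted peak (x axis, percent) for each combination of stages at which a region was called (y axis, with the number of regions); points are shares, bars exact 95% intervals, colours the number of stages and the dashed line the share over all native regions, 63.3%. The E80-alone regions lie lowest at 27.9% and the 4-stage regions highest at 89.8%.

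Counted by stage, with regions called elsewhere included, 87.4% of E50 regions held a lifted peak, 69.7% of E60, 66.4% of E80 and 81.9% of E85 regions. The 2 smaller sets, E50 and E85, had the higher shares. The 4-stage class makes up 17025 of the 18819 regions with an E50 peak.

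Promoters, taken as regions within 1000 bp of an annotated start of a protein-coding or lncRNA transcript, mostly held a lifted peak. The share was 87.5% of 16751 promoters (87.0% to 88.0%) and 56.1% of 55607 distal regions (55.6% to 56.5%), a difference of 31.5 points. Among distal regions, exonic ones stood at 65.7%, intronic ones at 55.4% and intergenic ones at 54.9%. Promoters were also wider, with a median of 1039 bp against 400 bp, and with common width bins the difference was 9.05 points. It held within each number of stages: 55.2% against 39.2% at 1 stage, 82.1% against 56.2% at 2, 90.5% against 72.4% at 3 and 96.3% against 83.0% at 4.

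Among distal regions the share varied less with distance to a start. Distal regions up to 10 kb from a start stood at 58.7%, those over 10 to 50 kb at 56.8%, those over 50 to 100 kb at 56.1% and those over 100 kb at 51.0%. Distal regions with a lifted peak had a median distance to the nearest start of 25077 bp, and those without of 27982 bp. Over all native regions, promoters included, the medians were 9598 bp and 23822 bp. A region with only lifted peaks lay within 1000 bp of 9.67% of all native regions with a lifted peak and of 4.37% of those without.

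**Figure D2:**
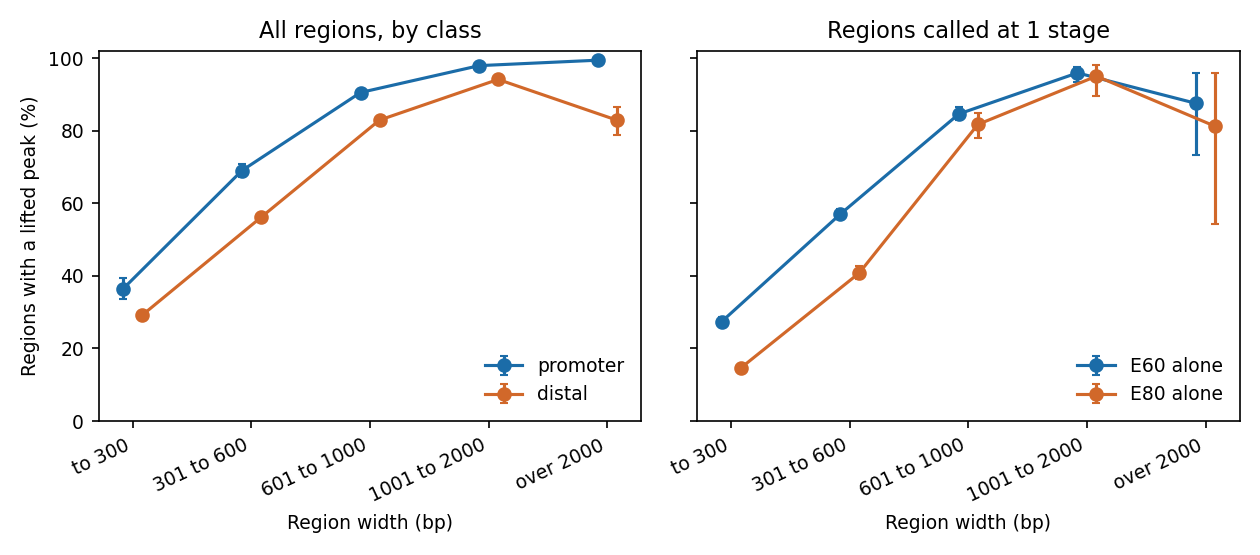
Share of native regions with a lifted peak (y axis, percent) by region width (x axis, bp), left for promoters and distal regions and right for the E60-alone and E80-alone regions; points are shares and bars exact 95% intervals. The single-stage shares are 27.4% and 14.6% at up to 300 bp, 57.0% and 40.8% above 300 and up to 600 bp, and 84.6% and 81.7% above 600 and up to 1000 bp; promoters lie above distal regions in each width bin, at 99.4% against 82.9% over 2000 bp.

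The 4 lifted codes covered the native regions unequally. H23 was present in 57.8% of them, H14 in 55.8%, H22 in 41.7% and H16 in 28.3%, in the order of their peak numbers. Read from the other side, 88.1% of all regions with an H16 peak also held a stage peak, against 77.5% for H22, 59.8% for H14 and 58.3% for H23, and the 2 smaller sets had the higher shares. The most frequent combination was all 4 codes, in 19530 regions or 27.0%, followed by H14 with H22 and H23 in 8734 and H14 with H23 in 8643. Regions with all 4 codes had a median width of 1039 bp, 50.4% of them were promoters and 59.7% were called at 4 stages.

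H16 went from 6.86% of 1-stage to 70.9% of 4-stage regions. H14 went from 31.5% to 86.2%, H23 from 34.5% to 86.0% and H22 from 15.6% to 81.0%. Among regions called at E60 alone, 44.8% held H23 and 38.3% held H14 (43.9% to 45.7% and 37.4% to 39.2%). Among regions called at E80 alone, 21.7% held H23 and 22.6% held H14 (20.9% to 22.5% and 21.7% to 23.4%). Both codes were counted in the same regions, so these separate intervals do not compare them. A paired count of the 2 codes was not made. H16 was present in 9.03% of E60-alone and 3.36% of E80-alone regions.

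**Figure D3:**
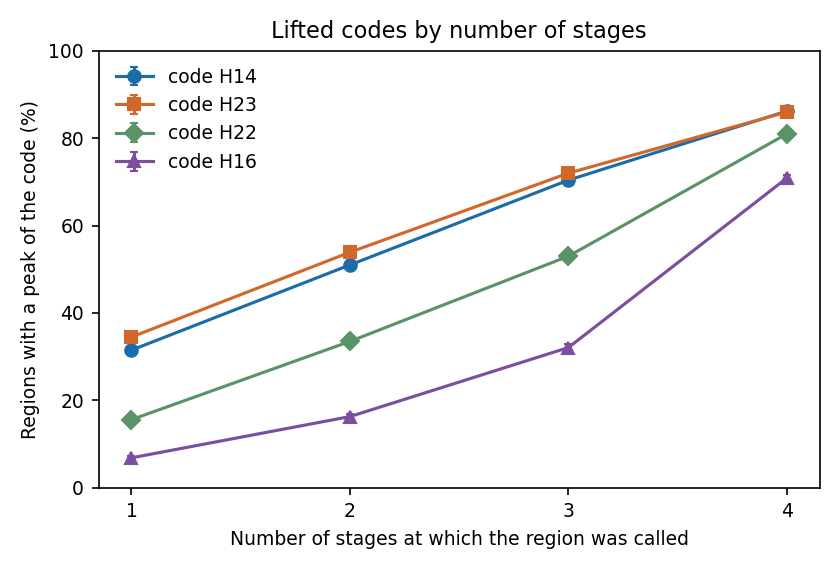
Share of native regions that hold a peak of each lifted code (y axis, percent) against the number of stages at which the region was called (x axis); points are shares and bars exact 95% intervals, which are mostly smaller than the symbols. H14 and H23 run close together to 86.2% and 86.0% at 4 stages, and H16 climbs from 6.86% to 70.9%.

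The AP-1 motif, TGACTCA, was more frequent in regions without a lifted peak. In the 300 bp at the region centre it was found on either strand in 33.2% of regions without a lifted peak (8796 of 26531), in 6430 of the 45827 with one, and in 21.0% of all native regions. Among distal regions the shares were 34.5% (33.9% to 35.1%) and 18.9% (18.4% to 19.3%). Promoters had the motif less often but the same order, with 376 of 2093 without a lifted peak and 3.74% with one. Of the narrow regions shown, that near EGR1 holds the motif without a lifted peak and that in NFIA holds it with lifted peaks.

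Each stage pattern examined had the same order. At E60 alone the motif stood in 15.9% of distal regions without and 7.21% with a lifted peak, at E80 alone in 47.6% and 33.3%, and at E60 and E80 together in 43.9% and 24.2%. At 4 stages the shares were 24.9% and 18.5%. E85-alone regions had 9.12% and 5.33%, with intervals that overlapped. In distal regions up to 300 bp wide, which are no wider than the window, the shares were 36.5% and 16.7%. Seen from the motif, 41.1% of distal regions with it held a lifted peak, against 61.2% of those without it. Weighted to common width and GC bins over all native regions, the difference between the groups was 10.3 points in place of 19.1. In regions without any E80 peak it was 7.27 points.

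**Figure D4:**
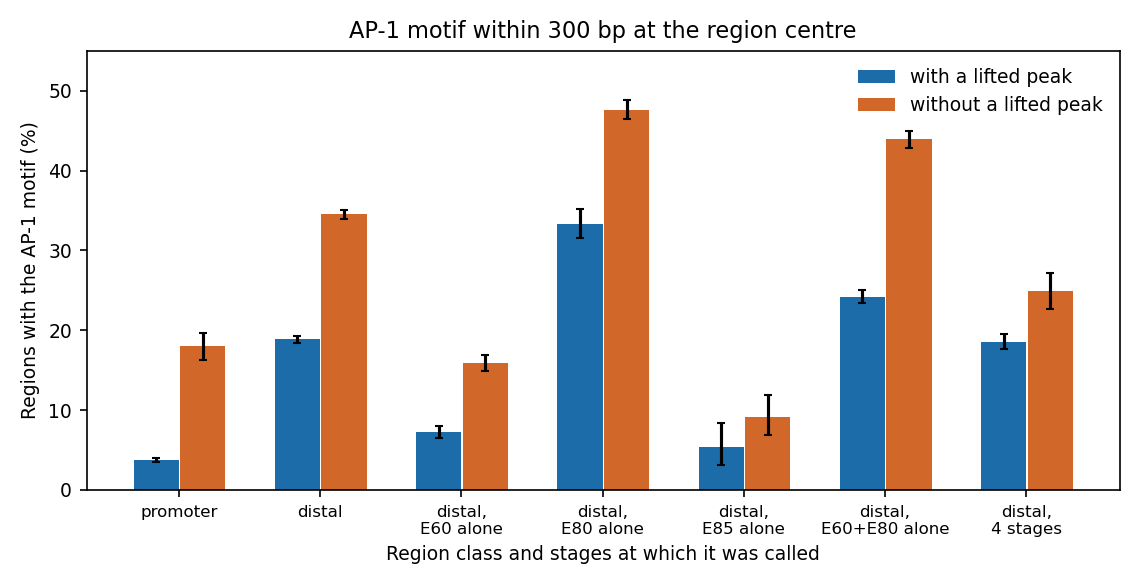
Share of regions with the AP-1 motif in the 300 bp at the centre (y axis, percent) in regions with (blue) and without (orange) a lifted peak, for promoters, distal regions and distal regions of named stage patterns (x axis); bars are shares and whiskers exact 95% intervals. The orange bar is the higher in each pair, from 9.12% against 5.33% at E85 alone to 47.6% against 33.3% at E80 alone.

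The codes separated on this motif too, in a comparison chosen after the values were seen. Distal regions whose only lifted code was H14 held the AP-1 motif in 38.1% of 2737 cases, and those whose only code was H23 in 14.5% of 3163 (36.2% to 39.9% and 13.3% to 15.8%). The median widths of these 2 groups were close, at 393 bp and 359 bp. Their mean GC content in the 300 bp at the centre differed, at 48.0% and 51.7%, and its part in the motif shares was not tested. The H14-only share was the higher by more than the counting error also for the homeobox motif TAATTA, 14.5% against 8.25%, whereas the E-box CAGCTG, which proneural factors such as NEUROG2 bind, was found in 23.7% against 34.0%. The 2 groups differed in stage as well: E80-alone regions made up 19.2% of the H14-only and 10.7% of the H23-only group, and E60-alone regions 20.5% and 33.1%. With both codes and no other, 13.3% of 7209 distal regions held the AP-1 motif. The H14-only share lay above the 34.5% (33.9% to 35.1%) of distal regions without a lifted peak, unlike the H23-only share. From 0 to 4 codes, the distal shares with the motif were 34.5%, 25.4%, 14.6%, 23.1% and 15.2%.

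In the 300 bp at the centre, other motifs differed less among distal regions. The TEAD motif ACATTCC, bound by the effectors of Hippo signalling, stood in 6.14% with and 6.58% without a lifted peak. The SOX motif was found in 5392 of 31169 and 4402 of 24438 distal regions, the nuclear factor I core in 23.6% and 22.9% and the homeobox motif in 9.41% and 11.0%. The CTCF core AGGGGGC, part of the site of the insulator protein CTCF, stood in 10.8% with and 7.41% without, and the KLF/SP motif GGGCGG in 16.9% and 12.4%. The median GC content of the 300 bp at the centre was 54.7% with and 48.7% without a lifted peak over all native regions, and 50.3% and 48.3% among distal regions. The part of base composition in the CTCF and KLF/SP shares was not tested.

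Gene loci were next compared, a locus being a protein-coding gene's body and the 5000 bp upstream. Of 46876 native regions in such loci, 67.8% held a lifted peak. Among 881 named loci with at least 10 native regions, the median share was 63.6% with quartiles of 53.3% and 73.7%, and 148 loci, 16.8%, had more regions without a lifted peak than with one. An expected share was also computed for each locus, as the mean over its regions of the genome-wide share for the same width bin, number of stages and promoter or distal class.

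In 9 of the 881 loci each native region held a lifted peak. They include genes of transcription control, whose share among the 881 was not counted. TCF12, an E-protein partner of proneural factors, had 12 of 12 regions with a lifted peak (expected 75.1%). TCF4, a second E protein, had 19 of 20, with 70.5% expected. ZNF608 had 13 of 13, BCL9L, a WNT coactivator, 11 of 11, and QKI, an RNA-binding protein of glia, 10 of 10. GAS7 (13 of 13), RGS3 (11 of 11), SHROOM2 (11 of 11), LEMD1 (10 of 10), CUEDC1 (18 of 19) and GRAMD1B (17 of 18) were also among the highest. The exact interval of 10 of 10 still reaches down to 69.2%, close to the median locus.

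The 12 lowest loci include genes of synapses, axons and membrane excitability, whose share among the 881 loci was not counted. DLGAP2, a scaffold protein of the postsynaptic density, had a lifted peak in 4 of 29 regions, 13.8% (3.89% to 31.7%) against 55.3% expected, and 3 of its 25 regions without one were called at all 4 stages. TMEM132D had 4 of 23 (expected 49.0%) and RIMBP2, a presynaptic active zone protein, 2 of 11 (expected 49.3%). NXN, a thioredoxin-like regulator of WNT signalling, had 3 of 16 (expected 59.0%). RBFOX1, a neuronal splicing factor, and CNTNAP2, a neurexin-like adhesion protein, each had 5 of 21 (expected 54.7% and 46.7%). UNC5D, a netrin receptor, had 3 of 13 (expected 43.9%) and KCNH7, a voltage-gated potassium channel, 4 of 16 (expected 48.3%). GFRA1, a GDNF receptor, had 3 of 12 (expected 65.7%). FSTL4 had 5 of 23, L3MBTL4 4 of 16 and RASGEF1A 2 of 10 (expected 49.3%, 50.4% and 53.4%). DLGAP2, TMEM132D, RIMBP2 and NXN lie 1.40, 3.32, 2.51 and 0.660 Mb from a chromosome end, and the share over all autosomal regions was 56.5% up to 1 Mb from an end, 58.5% above 1 and up to 2 Mb, 59.0% above 2 and up to 5 Mb and 64.8% beyond 10 Mb. In the outer 5 Mb, the start of chromosome 8, which holds DLGAP2, stood at 30.1% of 93 regions (expected 60.3%). The end of chromosome 11, with TMEM132D and RIMBP2, stood at 50.0% of 136 (expected 61.1%). The start of chromosome 16, with NXN, stood at 57.5% of 268 (expected 64.8%). These counts include the regions of the genes themselves. As the lowest of 881 loci, the 12 loci were picked for their values, and no locus was tested.

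Gene lists by cell type and pathway were described by their summed regions. Lists of progenitors, astrocytes and the oligodendrocyte lineage lay above the 67.8% of all loci, unlike that of microglia given below. Radial glia genes had 91 of 113 regions with a lifted peak (80.5%, expected 74.5%). Outer radial glia genes had 63 of 83 (75.9%), with an exact interval of 65.3% to 84.6% that includes 67.8%. Astrocyte genes had 97 of 117 (82.9%, expected 71.0%) and oligodendrocyte lineage genes 49 of 59 (83.1%, expected 70.6%). Nuclear factor I genes had the most regions of the astrocyte list, with a lifted peak in 24 of 28 at NFIA, 15 of 17 at NFIB and 24 of 29 at NFIX, and the glutamate transporter gene SLC1A2 had 7 of 11. SOX2, the transcription factor of neural stem cells, had 11 of 12 and GLI3, a mediator of hedgehog signalling, 17 of 23. All 17 regions of the intermediate progenitor list, with EOMES, NEUROG2 and INSM1 among its 9 genes, held a lifted peak, which at this number allows a share as low as 80.5%.

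The lists of projection neuron genes, most of them transcription factors, also lay above 67.8%, with exact intervals that include it. Deep-layer genes stood at 73.6% (61.9% to 83.3%, expected 62.3%) and upper-layer genes at 73.7% (62.3% to 83.1%, expected 62.9%). SOX5 had 18 of 21 regions with a lifted peak, FOXP1 13 of 21 and CUX1 18 of 25. UNC5D, the netrin receptor of the upper-layer list, had 3 of 13. Genes of interneurons and the ventral forebrain stood at 80.0% (67.0% to 89.6%, expected 70.1%). GAD1 and GAD2, the genes of the enzymes that make GABA, had 11 of 12 and 3 of 6. Telencephalon patterning genes stood at 77.2%, with 17 of 19 at TCF7L2 and 15 of 19 at MEIS2. The family of SOX genes, taken by name, had 74 of 86 regions with a lifted peak, 86.0% against 72.2% expected.

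Of 28 lists, 8 lay below the 67.8% of all loci. Ion channel and transmitter receptor genes had 114 of 216 (52.8%, expected 56.8%), with 10 of 30 at CACNA1C, a calcium channel subunit, 7 of 19 at KCNQ5 and 26 of 46 at KCNMA1, both potassium channels. Synaptic scaffold and adhesion genes had 178 of 310 (57.4%, expected 59.4%), with 1 of 8 at SHANK3, 30 of 50 at OPCML and 27 of 42 at DLG2. Pan-neuronal genes had 108 of 187 (57.8%, expected 57.1%). These 3 lists were near their expected shares. Their promoters held lifted peaks in 28 of 28, 27 of 31 and 33 of 39 cases, against 87.5% of all promoters. Their distal regions stood at 45.7% (38.5% to 53.2%), 54.1% (48.1% to 60.1%) and 50.7% (42.3% to 59.0%). The synaptic and pan-neuronal distal intervals include the 56.1% of all distal regions. Endothelial genes had 14 of 31 (45.2%, 27.3% to 64.0%, expected 53.8%), with 0 of 8 at FLT1, a VEGF receptor, which allows up to 36.9% by the exact interval.

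Microglial genes had 4 of 8 (expected 57.0%). Genes near human-accelerated regions, conserved sequences that changed quickly on the human lineage, had 130 of 209 (62.2%, expected 59.4%), with 34 of 53 at AUTS2 and 19 of 38 at NPAS3. The WNT pathway list had 38 of 58 (65.5%, expected 68.7%), with 3 of 8 at WNT7B and 8 of 14 at TCF7L1. Genes with human-specific duplicates had 23 of 34 (67.6%), with 17 of 23 at SRGAP2 and 5 of 9 at NOTCH2.

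The remaining lists lay above the share of all loci. Their exact intervals include it except for the TEAD and Hippo, AP-1 and stress, and mural and mesenchymal lists. Notch pathway genes had 45 of 65 regions with a lifted peak (69.2%, expected 71.6%), and NOTCH1 itself had 8 of 14. All 17 promoters of the Notch list held one, as did 28 of 48 distal regions (58.3%, against 56.1% of all distal regions). FGF pathway genes, which include receptors of the FGF2 in the medium, had 41 of 52 (78.8%, expected 76.8%), with 9 of 13 at FGFR1. TEAD and Hippo genes had 60 of 75 (80.0%, expected 71.9%), with 20 of 24 at TEAD1. Genes of the AP-1 proteins and stress, FOSL2 and ATF3 among them, had 26 of 30 (86.7%, expected 79.9%), with all 17 promoters and 9 of 13 distal regions. Cell cycle genes stood at 79.5% of 44 regions, with 12 of 18 at CDK6, and progenitor timing genes at 73.4% of 64, with 5 of 13 at DOT1L, a histone methyltransferase. Chromatin regulators stood at 71.2% of 104, with 16 of 26 at ARID1B and 11 of 12 at CHD7. Mural and mesenchymal genes had 27 of 31 (expected 76.2%) and choroid plexus and hem genes 16 of 19 (expected 72.7%). HOX and EN genes of the hindbrain and spinal cord had 5 of 5 (expected 65.7%). Housekeeping genes had 18 of 23, 78.3%, which lay below their expected 84.5%.

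**Figure D5:**
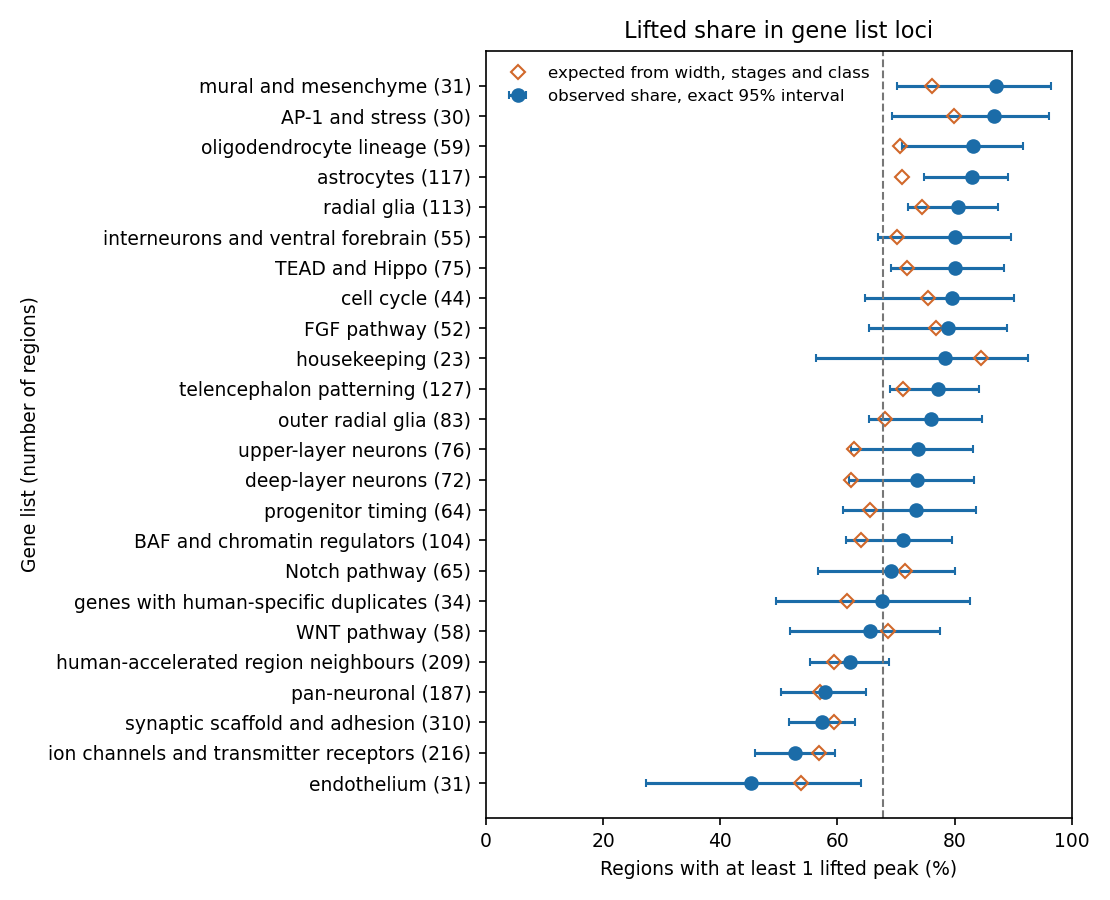
Share of native regions with a lifted peak in the loci of each gene list with at least 20 regions (x axis, percent; y axis, list and number of regions); filled points are observed shares with exact 95% intervals, open diamonds the share expected from width, number of stages and promoter or distal class, and the dashed line the 67.8% of all loci. Astrocyte genes lie above their expected share, and ion channel genes lie below the line and near theirs.

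Among the 317 listed genes found in the annotation, 158 had a promoter called at all 4 stages, and in 149 of these such a promoter held all 4 lifted codes. A 4-stage promoter without a lifted peak was found at 1 listed gene, VGLL4, a cofactor that competes with YAP for TEAD proteins, at chr2:143001116-143001765, 650 bp wide. Counted by region, 96.3% of all 8596 4-stage promoters held a lifted peak and 314 did not, so few exceptions are the rule for promoters in general. The share of all 4-stage promoters with all 4 codes was not computed.

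Regions called at all 4 stages without a lifted peak numbered 1743, and they differed in sequence uniqueness from those with one. The 31 bases at the region centre occurred more than once in the assembly in 16.2% of them (282 regions), against 1.43% of 4-stage regions with a lifted peak. Unplaced sequences held 189 of the 1743, 10.8%. Over all native regions, 20 of 826 on unplaced sequences held a lifted peak, 2.42%, against 63.9% on the autosomes and 68.6% on the X chromosome. Of 69 regions that resemble the mitochondrial genome, 0 did, which allows a share of up to 5.21%. On placed chromosomes with a centre sequence that occurs once, 4-stage regions exceeded 1-stage regions by 50.1 points, close to the 49.2 points of all regions.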

How the data were processed

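The 8 bulk ATAC-seq libraries were made from 1 macaque culture per stage, as the labels' protocols state. Tools named in the submitters' processing notes are cutadapt 4.4, Bowtie2 2.5.1 and SAMtools 1.15, with rheMac10 as the build. For the peak caller, its threshold, the pooling of libraries, the lift-over tool and the nativeFiltered filter, the sources used here give nothing. The deposited file is a headerless list of merged regions, of which only positions and peak names were used. Its 8 columns of values carry no names, could not be matched to libraries and were left unused, so depth is unknown. Gaps in the numbering of the deposited peaks (12.6% to 34.8% of numbers in the stage sets, 9.11% to 11.4% in the lifted sets) mean that some numbers have no peak in the file.

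Coordinates are 1-based. Starts and gene models are those of NCBI for Mmul_10. Shares have Clopper-Pearson 95% intervals, and no test over regions was made, since regions are not replicates. A share expected from 5 width bins, 4 numbers of stages and 2 classes was added after the data were seen. Centres were counted by their 31 bases, and mitochondrial-like regions have at least 20 matches of 25 bases. The reference sequence is not masked for repeats, so the planned share of masked bases was not computed. Regions and lists were chosen with earlier results of these data known. Named genes were the 12 loci of at least 10 native regions with the highest and the 12 with the lowest share, the list members with the most regions and with the lowest shares, and 4-stage promoters of listed genes without a lifted peak. SHANK3 and the other members named fall under this rule. Some genes that this rule selects are not reported here. Printed sequences were regions of at most 300 bp in list loci with the most stages, leaving out chromosomes 8 and 18. Of 324 listed symbols, 7 were not found in the annotation. Alternatives left out cultures or codes, changed windows or weighted by width. The weighting and overlap code was tested on simulated data. Python 3.11.15, pandas 2.3.3, NumPy 2.4.6, SciPy 1.17.1, Numba 0.67.0 and matplotlib 3.10.9 were used.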

Additional observations from a re-analysis of the deposited data

How the results depend on the processing

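No paired analysis was possible because the value columns carry no sample names and the peak sets have no replicates. Among the 56 alternatives, each one on a difference kept its direction. Those on a share or a count of lists cannot be negative, so they could not turn and say nothing about direction. Of the 56 alternatives, 13 stayed within the counting error of the main value or, for counts of lists, within 1.5 times. Motifs other than AP-1 were not among the 56. In distal regions the TEAD, SOX and homeobox differences turned when the whole region was searched.

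The overall lifted share of 63.3% was 53.5% with at least 2 different codes required, 63.9% on autosomes, 64.0% on placed chromosomes, 55.8% for regions of at most 1000 bp and 73.6% over stage peaks. It was 65.8% without the E60 culture, 68.8% without the E80 culture, 59.3% without code H14 and 58.1% without code H23. The 4-stage minus 1-stage difference of 49.2 points was 18.5 with common width bins, 41.1 in promoters, 43.9 in distal regions, 50.1 on autosomes, 58.6 with at least 2 codes and 50.1 with centres that occur once. With 3 stages against 1 it was 44.9 without the E50, 38.6 without the E60, 33.0 without the E80 and 48.1 without the E85 culture. The promoter minus distal difference of 31.5 points was 34.0 and 28.2 with windows of 500 and 2000 bp, 32.7 with protein-coding starts, 9.05 with common width bins and 37.0 with at least 2 codes. Within 1, 2, 3 and 4 stages it was 16.1, 25.9, 18.1 and 13.3.

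The E60-alone minus E80-alone difference of 22.8 points was 12.9 with common width bins, 26.7 in promoters, 19.8 without the AP-1 motif and 15.7 for H14 alone. Loci with more regions without than with a lifted peak made up 24.96% with distal regions alone, against 16.8%. As a share of its own regions each code gave 59.8% (H14), 88.1% (H16), 77.5% (H22) and 58.3% (H23), which is another denominator. The AP-1 difference of 19.1 points was 13.1 over whole regions, 16.97 in 1-stage distal regions, 10.3 with common width and GC bins and 7.27 without E80 regions. The mean GC difference, without minus with, of -5.97 points was -4.01 over whole regions and -0.997 in 1-stage distal regions. Beyond the construction of each alternative, the cause was not tested. Alternatives on the E60 and E80 contrast, centres that occur once, GC bins and E80 regions were chosen after seeing the data.

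The peak threshold is unknown, so a region with no call in a set is not shown to be closed there.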

Other observations

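Lifted shares were lower near chromosome ends, a view chosen after the low loci were seen. On the autosomes, 56.5% of 1454 native regions within 1 Mb of an end held a lifted peak (53.9% to 59.0%), against 68.5% expected from width, number of stages and class. Beyond 10 Mb the share was 64.8% against 63.1% expected. At 38 of 40 autosome ends, taken as the outer 5 Mb, the share lay below the expected value. Promoters within 1 Mb stood at 77.1% (expected 87.1%) and distal regions at 44.2% (expected 57.5%). The median GC content within 1 Mb was 62.0%, against 50.7% beyond 10 Mb, and 9.15% of the centres there recurred in the assembly, against 2.07%. The part of these in the lower share was not tested. SHANK3, 0.748 Mb from an end, and CACNA1C, 2.05 Mb from an end, lie in such stretches.

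Gene families taken by name gave a spread of shares. Zinc finger ZNF genes had 552 of 691 regions with a lifted peak (79.9%, expected 78.3%), cytosolic ribosomal protein genes 86 of 103 (83.5%, expected 88.6%) and solute carrier genes 540 of 800 (67.5%, expected 67.7%). Collagen genes had 110 of 210 (52.4%, expected 57.2%), with 29 of 39 promoters. Keratin genes had 8 of 21 (38.1%, expected 53.5%). Protocadherin genes, which give neurons their surface identity, had 46 of 62 (74.2%, expected 67.8%). Among the autosomes, the share ran from 57.8% on chromosome 8 to 71.8% on chromosome 19, where 41.6% of native regions were promoters. On the Y chromosome it was 44.1% of 34 regions (27.2% to 62.1%).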
